A study of Sus scrofa with 4 samples.

Results

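Epithelial cell junction and keratin genes were followed in 4 fibroblast cultures, namely CDH1, EPCAM, DSP, PERP, SFN, CLDN4, KRT8, KRT18, KRT19 and S100A14. They are 10 of the 6765 genes that the platform annotation names through at least 1 probeset with a single symbol, and together they have 13 such probesets. The cultures were grown from deep and shallow wounds on the backs of 2 Duroc pigs, biopsied 20 weeks after wounding. Each pig gave 1 deep and 1 shallow culture, so there were 2 deep arrays and 2 shallow arrays, paired by pig as the sample titles are read here. All 4 cultures were grown in the same medium with fetal bovine serum, and total RNA was taken from confluent dermal fibroblasts. The labels give no allele or drug treatment, no passage number and no count of cells other than fibroblasts, and 1 culture stands for each wound depth of each pig.

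The genes were chosen because they read high on 1 array, that of the shallow culture of pig 1. Their levels across the 4 arrays are therefore a description, and no test is attached to them. That culture has no replicate, so it is set against each of the other 3 cultures in turn, and counting rules of size stand in for tests. Values are MAS5 signals, a linear brightness scaled to the same trimmed mean of 250.1 on every array, with values under 1 set to 1. A probeset's signal depends on its own probes, so signals are compared between arrays and never between genes. The table has no detection calls. Signals were therefore set beside the brightest of 23 control probesets for transcripts that pig RNA should lack, which read 14.8 on the shallow array of pig 1, 21.8 and 30.9 on the deep arrays of pig 1 and pig 2, and 13.6 on the shallow array of pig 2.

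Epithelial cells are held together by 3 kinds of junction. Adherens junctions are built on cadherins, desmosomes tie the keratin filaments of neighbouring cells together, and tight junctions, built on claudins, seal the space between cells. Keratins form filaments from a type I and a type II partner, and KRT8 with KRT18 is the pair of simple, single-layered epithelia, while stratified epidermis uses other pairs. Fibroblasts, the main cell of the dermis, rely on vimentin filaments and normally hold little of the desmosome proteins, claudins and keratins of epithelia.

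All 10 genes were highest on the shallow array of pig 1, by 12 of their 13 probesets. By the brightest probeset of each gene, 8 of the 10 read there at least 4-fold above the highest of the other 3 arrays, with each of those arrays raised to its own absent-transcript control. Among all 6765 named genes 56 met this rule, 0.828%. The median of the 10 genes was 17.7-fold, and the median of all named genes was 0.789-fold. Since the genes were picked from these arrays, their count is not evidence beyond the choice itself. With the rule turned on the other arrays, 0 named genes met it on the deep array of pig 1, 5 on the deep array of pig 2 and 1 on the shallow array of pig 2. None of the 10 could be among these, since all 10 were highest on the shallow array of pig 1. With quantile normalization or with each array centred on its median, all 10 were again highest on the shallow array of pig 1.

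**Figure D1:**
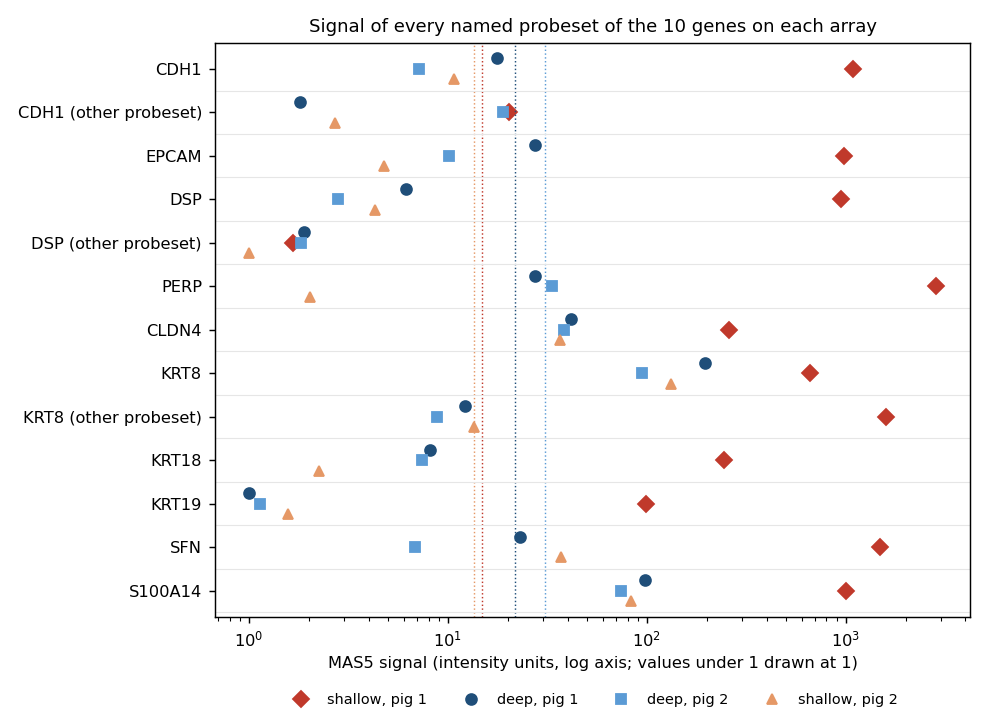
MAS5 signal (log axis, intensity units) of each of the 13 named probesets on the 4 arrays; dotted lines mark the brightest absent-transcript control of each array, in that array's colour. The shallow array of pig 1 stands to the right for all 10 genes, with KRT8, S100A14 and CLDN4 the only ones whose brightest probeset is above the controls on all 3 other arrays.

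Among the adhesion molecules, CDH1, or E-cadherin, is the cadherin of epithelial adherens junctions. Its brightest probeset read 1084 on the shallow array of pig 1, against 17.7 and 7.15 on the deep arrays of pig 1 and pig 2 and 10.7 on the shallow array of pig 2. The other 3 signals were below the controls of their arrays, so the shallow culture of pig 1 was at least 35.0-fold higher than each. A second CDH1 probeset was dim everywhere, at 20.4 on the shallow array of pig 1 and no more than 18.9 elsewhere, and did not meet the rule. EPCAM, a surface glycoprotein of simple and glandular epithelia and of their carcinomas, read 979 on the shallow array of pig 1, against 27.3 and 10.1 on the deep arrays of pig 1 and pig 2 and 4.79 on the shallow array of pig 2. Of the other cultures only the deep one of pig 1 gave EPCAM above its controls, and the shallow culture of pig 1 was at least 31.7-fold higher than each of the others.

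The desmosome genes DSP and PERP were next. DSP, desmoplakin, anchors keratin filaments at the desmosome plaque and read 950 on the shallow array of pig 1, against 6.18 and 2.79 on the deep arrays of pig 1 and pig 2 and 4.29 on the shallow array of pig 2. On those 3 arrays DSP was below the controls, so the difference was at least 30.7-fold, while a second DSP probeset read at most 1.88 on all 4 arrays. PERP is a membrane protein of desmosomes in stratified epithelia and a target of p53. It read 2846 on the shallow array of pig 1, against 27.5 and 33.4 on the deep arrays of pig 1 and pig 2 and 2.02 on the shallow array of pig 2, a difference of 85.2-fold over the highest of these. On both deep arrays PERP was just above the brightest absent control, while the shallow culture of pig 2 gave a signal below it. Of the other desmosome genes on a list of 13, the annotation names a probeset only for JUP, plakoglobin, which is shared with adherens junctions. JUP read 48.1 on the shallow array of pig 1, within the 39.6 to 55.0 of the other arrays.

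The tight junction gene CLDN4, claudin 4, is typical of simple and glandular epithelia. Its signal was 258 on the shallow array of pig 1, against 41.6 and 38.4 on the deep arrays of pig 1 and pig 2 and 36.6 on the shallow array of pig 2. It was above the controls on all 4 arrays and 6.21-fold higher than the highest of the other 3, the smallest of the 8 values that met the 4-fold rule.

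The keratins differed among themselves. KRT8, the type II keratin of simple epithelia, has a pair of probesets. The brighter read 660 on the shallow array of pig 1, against 196 and 95.1 on the deep arrays of pig 1 and pig 2 and 132 on the shallow array of pig 2, which is 3.37-fold and just outside the rule. The dimmer read 1599 on the shallow array of pig 1 and no more than 13.6 elsewhere, at least 51.7-fold. Both probesets are highest on the same array, and they differ on whether the other 3 cultures carry a signal above the controls. KRT18, the type I partner of KRT8, read 243 on the shallow array of pig 1, against 8.13 and 7.38 on the deep arrays of pig 1 and pig 2 and 2.25 on the shallow array of pig 2, at least 7.86-fold. KRT19, a type I keratin of simple epithelia and of hair follicle stem cells, read 99.4 on the shallow array of pig 1, against 1.00 and 1.14 on the deep arrays of pig 1 and pig 2 and 1.58 on the shallow array of pig 2. Its bound of at least 3.22-fold fell short of the rule because the control of the deep array of pig 2, at 30.9, stood in for its signal. KRT8 and KRT18 are next to each other among the protein-coding genes of the Sscrofa11.1 gene table.

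The remaining genes are not structural. SFN, the 14-3-3 sigma protein, is an epithelial regulator of the cell cycle and, like PERP, a p53 target. It read 1486 on the shallow array of pig 1, against 23.1 and 6.81 on the deep arrays of pig 1 and pig 2 and 37.0 on the shallow array of pig 2, a difference of 40.1-fold over the highest. S100A14, a calcium-binding S100 protein of epithelial cells, read 1002 on the shallow array of pig 1, against 98.1 and 74.3 on the deep arrays of pig 1 and pig 2 and 83.3 on the shallow array of pig 2, or 10.2-fold. Like CLDN4 and the brighter KRT8 probeset, it was above the controls on all 4 arrays.

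By their brightest probesets, 3 of the 10 genes (KRT8, S100A14 and CLDN4) were above the controls on all 3 other arrays, 3 (EPCAM, PERP and SFN) on 1 or 2 of them, and 4 (CDH1, DSP, KRT18 and KRT19) on none. On the deep array of pig 1, grown from the same animal, 4 of the 10 were below the controls, and on the deep array of pig 2 and the shallow array of pig 2 it was 6 each. In a bulk culture, fewer epithelial cells and less of these transcripts per cell cannot be told apart.

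The study compared deep with shallow wounds in the same animal, and the 10 genes behaved differently in its pigs. In pig 1 the deep array was below the shallow array for all 10 by their brightest probesets, by between 3.37-fold for KRT8 and 103-fold for PERP. Of these differences 4 are bounds. The dimmer KRT8 probeset gave at least 73.3-fold. At least 2-fold lower on the deep array of pig 1 were 8.37% of all named genes, and this is the contrast from which the genes were chosen. In pig 2, 5 of the 10 (CDH1, EPCAM, DSP, KRT18 and KRT19) were below the controls on both arrays, so no difference was measured. PERP was at least 2.46-fold higher on the deep array of pig 2, and SFN at least 1.20-fold lower. For CLDN4, KRT8 and S100A14, which were above the controls on both arrays, the log2 deep minus shallow differences in pig 2 were 0.07, -0.47 and -0.17. The dimmer KRT8 probeset was below the controls on both arrays of pig 2. With values raised to the controls, 2.53% of all named genes were at least 2-fold lower on the deep array of pig 2. PERP, CLDN4, KRT8 and S100A14 were not, while for SFN the bound does not give the full size of the difference. These differences within 1 pig rest on 1 array a side and carry no test.

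**Figure D2:**
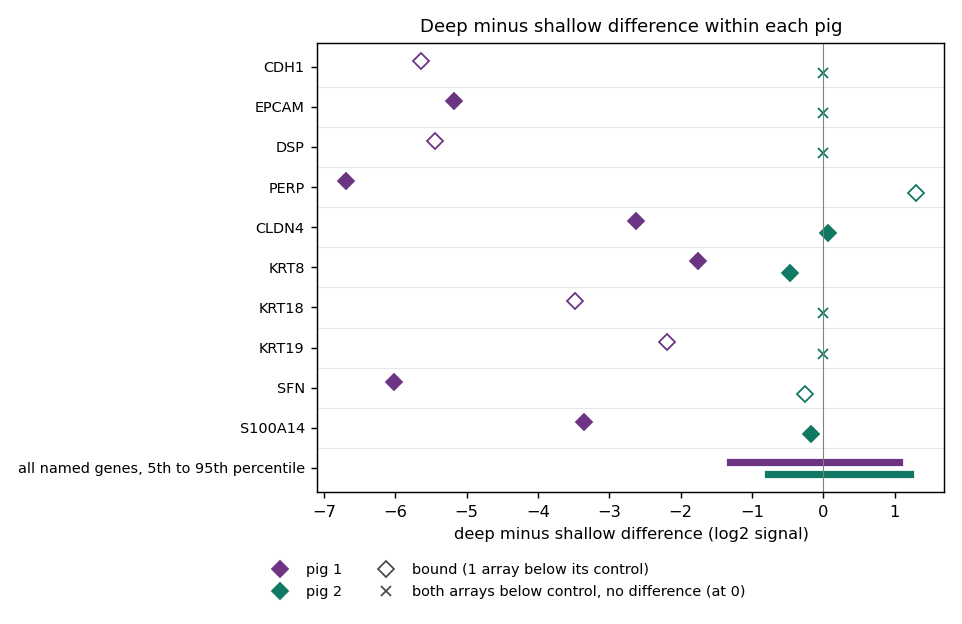
Log2 deep minus shallow difference of each gene in pig 1 and in pig 2, brightest probeset; open diamonds are bounds with the absent control in place of the dimmer array, crosses mark genes below the controls on both arrays, and the bars give the 5th to 95th percentile of all named genes. In pig 1 the differences lie between -6.69 and -1.75, and in pig 2 those that could be measured or bounded lie between -0.47 and 1.30.

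Across both pigs, deep and shallow arrays were compared with limma, with the pig as a block, over 14399 probesets that passed a filter on dim signals. Of the 10 genes 7 passed that filter by their brightest probeset, and DSP, KRT18 and KRT19 did not. The mean log2 differences, deep minus shallow, lay between -4.23 ± 0.75 (SE) for SFN and -1.11 ± 0.38 for KRT8. The dimmer KRT8 probeset, below the controls on all but the shallow array of pig 1, gave -3.82 ± 1.22. For CDH1 the value was -3.26 ± 1.06, and for PERP, whose pigs went opposite ways, -1.32 ± 1.96. Both rest in part on signals below the controls, and with every value raised to its array's control they were -2.22 and -2.70. The differences of SFN and EPCAM rest in part on such signals too. Raised in the same way, SFN was -3.13 and EPCAM -1.99, against -2.05 before. Over all probesets 34 were called higher in deep, 0.236%, and 15 lower, 0.104%, at a limma adjusted p of 0.05, and 0 with no block for the pig (1885 at an unadjusted p under 0.05). Of the 10 genes 0 were among the 49 called with the block, and since they were chosen on these arrays no p is given for them. Without the shallow array of pig 1 the sign of the mean difference turned for 7 of the 10 (all but DSP, SFN and KRT19). Of these 7, CDH1 and KRT18 were below the controls on all 3 arrays left, and the signs for EPCAM and PERP rest on a shallow signal below them, so these 4 signs are not measured differences. DSP and KRT19 were also below the controls on all 3 arrays left, so their kept signs are not measured either. The sign kept by SFN rests in part on a deep signal below the controls.

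Other epithelial genes were taken from 10 lists of junction, keratin, keratinocyte and glandular genes, factors and membrane proteins. Of 140 listed genes besides the 10, the annotation names a probeset for 48. On the shallow array of pig 1, 5 of these 48 were at least 4-fold above the highest other array, against 0.828% of all named genes. At least 2-fold above it were 10, against 4.18% of all named genes. The lists were chosen with earlier results of these data known, so these counts are a description and not independent evidence. The median of the 48 was 0.825-fold, near the 0.789-fold of all named genes. On the shallow array of pig 1, 22 of the 48 were the highest of the 4 arrays (33.8% of all named genes were). Many of the 48 ratios are bounds with a control in place of the signal. A low bound cannot show that a gene lacks the pattern. The 5 were ESRP1, SPINT2, ST14, S100A9 and SPRP.

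ESRP1, which directs epithelial splice forms, read 331 on the shallow array of pig 1, against 14.1 and 1.91 on the deep arrays of pig 1 and pig 2 and 8.66 on the shallow array of pig 2, at least 10.7-fold. The membrane protease matriptase, ST14, and SPINT2, an inhibitor of such proteases, were both among the 5. SPINT2 read 322 on the shallow array of pig 1 and no more than 20.6 elsewhere, and ST14 read 169 there and no more than 4.14 elsewhere. S100A9, a subunit of calprotectin made by neutrophils and by stressed keratinocytes, read 209 on that array and at most 7.02 elsewhere. Its partner S100A8 read 63.5 there and at most 18.2 elsewhere. Of the leukocyte genes, PTPRC read 9.64 there, below the controls, while AIF1 read 79.3 there and at most 25.1 elsewhere, CD3E 18.1 there and at most 16.2 elsewhere. The summed signal of the leukocyte list was 159 there and 102 to 138 elsewhere, and its part in the S100A9 signal was not tested. SPRP, listed as SPRR1B, is a small proline-rich protein of the kind found in the cornified envelope. It read 252 on the shallow array of pig 1, against 23.1 and 39.9 on the deep arrays of pig 1 and pig 2 and 27.1 on the shallow array of pig 2.

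Several list genes came close to the rule without meeting it. MYO5B, a myosin of apical membrane traffic, read 118 on the shallow array of pig 1, at least 3.81-fold above the others. Of the tight junction genes, occludin, OCLN, read 110 on the shallow array of pig 1 and no more than 24.4 elsewhere, at least 3.56-fold with the controls in place. CLDN7 was 3.50-fold and CLDN6 3.39-fold above the highest of the other arrays. CLDN3, at 23.2, was not, and read 25.4 to 44.8 on the other 3.

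Adherens junction genes that fibroblasts use as well did not meet the rule. CTNNB1, beta-catenin, read 4966 on the shallow array of pig 1 and 5470 to 6168 on the others. VCL, vinculin, read 5769 there and 7552 to 10052 on the others. LIMA1 read 1099 there and 1099 to 1713 elsewhere, PKP4 71.7 there and 35.2 to 46.9 elsewhere. The cadherin of basal keratinocytes and placenta, CDH3, read 25.5 there and at most 24.8 elsewhere.

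Markers of the layers of the epidermis gave a mixed picture. Of 15 basal keratinocyte genes only 4 are named, and 0 met the rule. DST, dystonin, read 1600 on the shallow array of pig 1 and 1120 to 1942 on the others. COL17A1 read 39.1 there and up to 86.9 elsewhere, and ITGA6 8.07 there and up to 18.6. Of the differentiated keratinocyte genes 5 of 20 are named, and SPRP alone met the rule. IVL, involucrin, read 61.1 on the shallow array of pig 1, against 2.17 and 3.73 on the deep arrays of pig 1 and pig 2 and 17.9 on the shallow array of pig 2. KRT1 was at most 5.38 on every array, below all controls. KRT10, its partner, read 409 on the shallow array of pig 1 and 338 to 465 on the others, KRT2 23.2 there and 26.7 to 73.1, and CALML5 7.42 there and at most 17.4. KRT5, KRT14 and TP63, which define basal keratinocytes, have no probeset with their symbol alone and were not analysed here.

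Glandular genes were likewise split. Of 16 measured besides the 10, 2 (SPINT2 and ST14) met the rule. On the shallow array of pig 1, 8 of the 16 were the highest of the 4 arrays (33.8% of all named genes were). MUC1 read 28.7 on the shallow array of pig 1 and 17.6 to 44.4 on the others, PRSS8 56.5 there and 15.3 to 41.4, and TFF3 20.7 there and 33.8 to 74.5. SPINT1 read 47.8 there and at most 40.3 elsewhere, and SLPI 67.0 there and at most 52.0. PIGR, AQP5, WFDC2 and PROM1 were below the controls there, at 2.51, 7.88, 10.7 and 5.52. Of 8 measured epithelial transcription and splicing factors, ESRP1 alone met the rule, and 4 were highest there (33.8% of all named genes were). KLF4 read 1733 there and 982 to 1566 elsewhere. EHF read 21.4 there and at most 16.2 elsewhere, and FOXA1 21.2 there and at most 11.1. Both were above the controls on that array only, where the brightest control read 14.8, and were below the 21.8 and 30.9 of the deep arrays. ELF3 read 28.0 there and at most 30.1 elsewhere, and TFAP2C 261 there and 228 to 524. OVOL1 and SOX9 were below the controls there at 8.35 and 3.3. MAL2, a carrier of apical proteins in epithelial cells, had a pattern of its own. It read 600 on the shallow array of pig 1, against 403 and 63.4 on the deep arrays of pig 1 and pig 2 and 3.82 on the shallow array of pig 2. The high arrays of MAL2 were thus both arrays of pig 1.

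Of these 48 list genes 20 passed the filter and were tested between deep and shallow with limma. None of the 20 was called in either direction, against 0.236% higher and 0.104% lower over all probesets. Of the list genes that met the 4-fold rule only SPRP was tested. The filter on dim signals left out ESRP1, SPINT2, ST14 and S100A9, so the fit says nothing of them. At an unadjusted p under 0.05, TFF3 was higher in deep (log2 difference 1.11 ± 0.44, limma adjusted p = 0.318) and CLDN6 lower (-1.40 ± 0.44, adjusted p = 0.221), while 13.9% of all tested probesets were at that level.

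**Figure D3:**
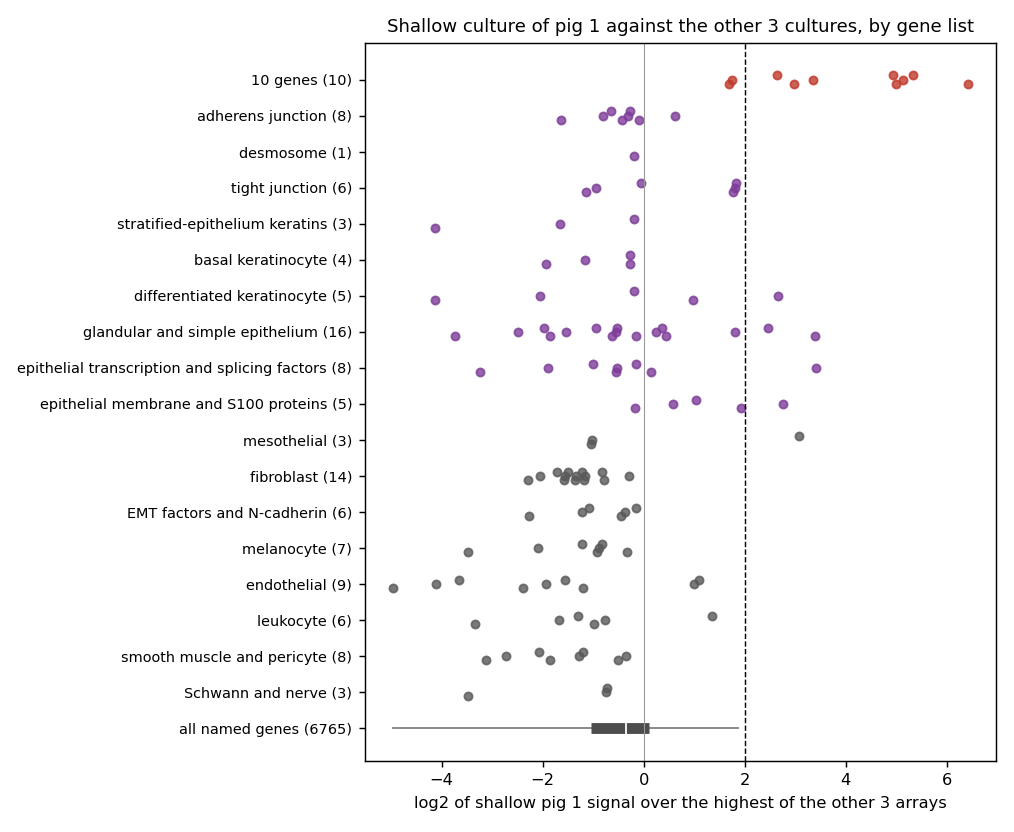
Log2 of the signal on the shallow array of pig 1 over the highest of the other 3 arrays (each raised to its absent control), 1 point per gene, for the 10 genes (red), epithelial lists without them (purple) and lists of other cell types (grey); the dashed line is 4-fold, and the bottom bar shows the 1st to 99th percentile (line) and quartiles (bar) of all named genes. The 10 genes lie between 1.68 and 6.41, and few points of the other lists pass the line.

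Among all named genes outside the 10, the 20 with the largest excess on the shallow array of pig 1 included ESRP1, SPINT2 and further genes of epithelia. The first and second places went to loci that the annotation gives only as LOC100737483 and LOC100737113. LOC100737483 read 3558 on the shallow array of pig 1 and no more than 2.97 elsewhere, at least 115-fold, beyond PERP. LOC100737113 read 2000 there and no more than 13.2 elsewhere, at least 64.7-fold, and its second probeset read 336 there and at most 49.3. In the gene table LOC100737483 is the coding gene directly before KRT6A and KRT5, and LOC100737113 precedes KRT19 and KRT15 with 3 other unnamed coding loci between. No keratin name is given to either here.

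Others of the 20 are known from epithelia. MAL, a lipid raft protein of apical transport, read 339 on the shallow array of pig 1 and no more than 31.4 elsewhere. BAIAP2L1, an adaptor of actin at the membrane, read 333 there and no more than 11.7 elsewhere. PLET1, a surface protein of epithelial progenitors in the mouse, read 253 there and at most 9.31 elsewhere. UPK1B, a uroplakin of urothelium that is also on the list for mesothelium, the lining of body cavities, read 328 there and at most 39.1 elsewhere. The list holds 6 measured genes, of which KRT8, KRT18 and KRT19 are described above and were highest there too. WT1 and CALB2 read 15.0 and 15.2 there and 12.8 to 23.2 on the other arrays.

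Several of the 20 encode signals and enzymes. FST, follistatin, binds activins and read 3496 on the shallow array of pig 1, against 98.3 and 200 on the deep arrays of pig 1 and pig 2 and 85.7 on the shallow array of pig 2. The hormone gene RLN2, relaxin, read 1369 there and at most 136 elsewhere, and the Wnt receptor FZD6 259 there and at most 29.9. HAS3, a hyaluronan synthase, read 512 there and at most 27.8, and B3GALNT1, a glycosyltransferase, 236 there and at most 26.7. The zinc finger factor ZFP42, a marker of pluripotent cells, read 715 there and at most 11.2 elsewhere. The surface protein TM4SF1 read 1382 there and at most 49.3 elsewhere, and the caveolar coat protein CAVIN2 1068 there and at most 68.4. CAVIN2 was among the 15 probesets that limma called lower in deep (log2 difference -4.28 ± 0.47), as 0.104% of all probesets were. With no block for the pig 0 were called. Its deep signals were 32.4 in pig 1 and 5.99, below the controls, in pig 2. The last 4 were the glutamate transporter SLC1A6 (306 there and at most 10.6 elsewhere), PLEK2 (456 and at most 52.9), the calcium sensor VSNL1 (255 and at most 13.1) and C1H15orf48 (384 and at most 50.7). All 20 were at least 7.58-fold above the highest of the other arrays, as the rule that chose them requires them to be high.

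**Figure D4:**
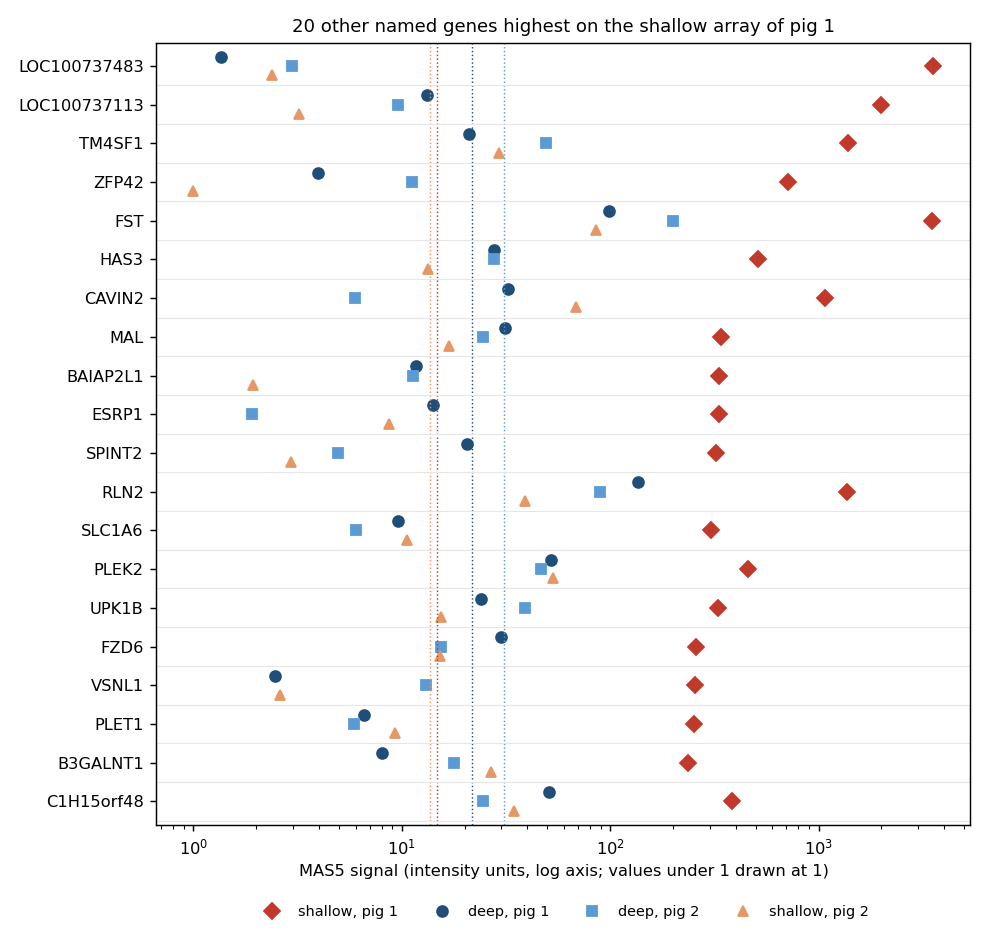
MAS5 signal (log axis, intensity units) on the 4 arrays of the 20 named genes outside the 10 with the largest excess on the shallow array of pig 1; dotted lines mark each array's brightest absent control. LOC100737483 reads 3558 on that array and no more than 2.97 elsewhere.

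Fibroblast genes were present on the shallow array of pig 1 as on the others. All 14 fibroblast markers with a named probeset were above the controls there, and their summed signal was 27508 on the shallow array of pig 1, against 51359 and 64893 on the deep arrays of pig 1 and pig 2 and 36147 on the shallow array of pig 2. Over the fibroblast list and the list of vimentin, N-cadherin and mesenchymal factors, 20 genes were measured. On the shallow array of pig 1, 0 of the 20 were at most 0.25 of the lowest other array (0.0739% of all named genes were), 11 were the lowest of the 4 arrays (31.1% of all named genes), and 0 were the highest (33.8%). With quantile normalization 10 were lowest there and 2 highest.

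The intermediate filament gene VIM, vimentin, read 9677 on the shallow array of pig 1, against 12061 and 22572 on the deep arrays of pig 1 and pig 2 and 9949 on the shallow array of pig 2. The matrix proteoglycan DCN, decorin, read 5740 there and 8290 to 13007 elsewhere, and the related LUM, lumican, 5284 there and 7355 to 13585. POSTN, periostin, read 5404 there and 8282 to 13598 elsewhere. The collagen gene COL1A2 read 328 there and 367 to 764 elsewhere, and THY1, a fibroblast surface marker, 397 there and 152 to 1172. S100A4 read 4591 there and 4035 to 10225 elsewhere. Among the factors, PRRX1 read 548 there and 1068 to 2623 elsewhere, TWIST2 916 there and 684 to 1188, and CDH11 709 there and 536 to 793. CDH2 and ZEB1 have no named probeset and were not analysed here. Both shallow arrays read below both deep arrays for all of the 20 genes except CDH11, SNAI1, TWIST2, TCF21 and TCF4. For CDH11 and SNAI1 the depths overlapped. TWIST2, TCF21 and TCF4 went the other way, with TCF4 above the controls on 1 array only. TCF21 read 725 and 761 in the deep cultures of pig 1 and pig 2, but 1285 and 1566 in their shallow cultures. The share of all named genes split by depth in either direction was not counted.

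Of the 20 genes 18 were tested between deep and shallow, and 0 were called by limma in either direction, against 0.236% higher and 0.104% lower over all probesets. At an unadjusted p under 0.05, 12 were higher in deep and 1, TCF21, lower, while 13.9% of all tested probesets were at that level. The median log2 difference of the 18 was 0.98, against -0.02 over all tested probesets. Over all 20 it was 0.95 on the deposited scale and 0.44 with quantile normalization. The technical controls given below also differed by depth, being higher on both deep arrays than on both shallow arrays, and their part in this difference was not tested.

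**Figure D5:**
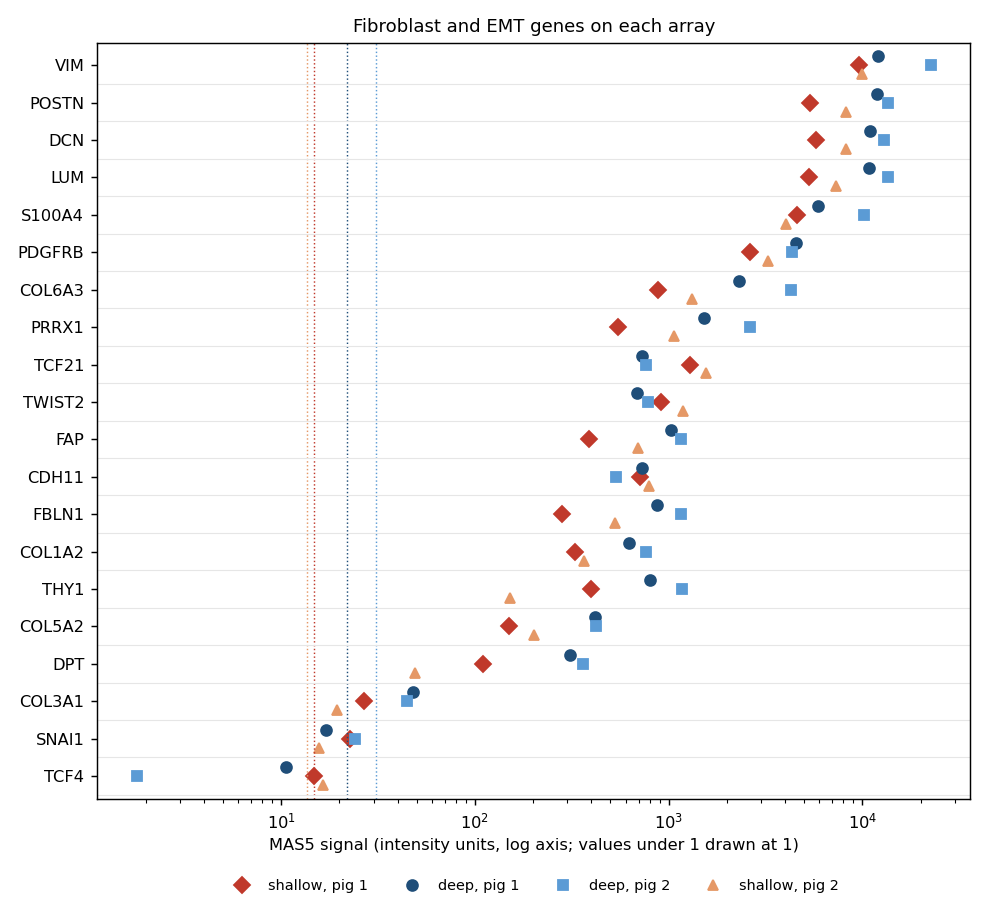
MAS5 signal (log axis, intensity units) of 20 fibroblast and mesenchymal genes on the 4 arrays; dotted lines mark each array's brightest absent control. On the shallow array of pig 1, 11 of the 20 genes are lowest and 0 highest.

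Markers of other cell types that skin cultures could hold were set beside the epithelial genes. Of the melanocyte, endothelial, leukocyte, smooth muscle and Schwann lists, with 7, 9, 6, 8 and 3 measured genes, 0 genes met the 4-fold rule. The melanocyte list summed to 185 on the shallow array of pig 1 and 218 to 300 on the others, with EDNRB at 83.4 there and 71.8 to 154 elsewhere, KIT at 21.9 and 20.7 to 38.8, MITF at 30.4 and 18.3 to 58.1, and SLC45A2 at 25.4 and 23.4 to 31.8. The endothelial list summed to 780 there and 303 to 489 elsewhere. PECAM1 read 601 there and 152 to 281 elsewhere, and CLDN5 114 there and at most 56.6, while the vessel genes CDH5, TEK, KDR and VWF were below the controls there and ESAM read 29.9 there and 29.0 to 68.9 elsewhere. Of the leukocyte list, whose sum and AIF1 values are given above, CD14 read 33.1 there and 36.6 to 81.5 elsewhere, and CD163 15.6 there and at most 17.2 elsewhere. Smooth muscle genes summed to 10162 there and 13832 to 22242 elsewhere, ACTA2 reading 7577 there, TAGLN 1866 and RGS5 50.7. ACTG2, enteric smooth muscle actin, read 4269 and 2914 on the deep arrays of pig 1 and pig 2, against 492 and 717 on their shallow arrays. Its brighter probeset was called higher in deep (log2 difference 2.57 ± 0.33, limma adjusted p = 0.0351), as 0.236% of all probesets were, and a second ACTG2 probeset was not (0.16 ± 0.45). For the brighter probeset the limma adjusted p was 0.0669 with no block, 0.21 with no filter and 0.0531 with values under 16 set to 16. It was 0.045 with quantile normalization, 0.041 with each array centred on its median and 0.00263 with the pairing of the pigs crossed. With any single array left out its log2 difference was 2.3 to 2.85. Of the Schwann cell genes S100B read 31.2 there and 28.6 to 51.3 elsewhere, GFAP 39.9 and 35.4 to 66.8, and SOX10 2.78, below the controls. The part of any of these in the epithelial signal was not tested.

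The shallow array of pig 1 also stood at one end of the technical controls. Actin probesets at the 3' end over those at the 5' end gave a ratio of 1.96 there, against 3.28 and 6.10 on the deep arrays of pig 1 and pig 2 and 2.41 on the shallow array of pig 2. The 28S ribosomal RNA signal was 1350 there and 1830 to 7467 elsewhere, and the geometric mean of 27 hybridization controls 1145 there and 1326 to 3880 elsewhere. Their part in the epithelial pattern was not tested.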

How the data were processed

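Gene expression was measured on Affymetrix porcine arrays, 1 for each of 4 cultures. The authors deposited 1 MAS5 signal intensity per probeset and array, made with GCOS 1.0 and MAS5 per the submitters' processing notes. Not given in the sources used here are scan settings and the scaling target. The number of arrays limits the precision, and with the pig as a block little is left to estimate the spread of any single probeset. The p-values rest only on the spread between these samples, which limma pools in part over probesets of similar signal.

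The 124 control probesets were left out, which left 23999 (64 reporter-gene probesets stayed in, 2 of them past the filter), and 2547 signals under 1 were set to 1. Of these probesets 10069 carry 1 symbol, for 6765 genes, each given by its brightest probeset (mean log2 signal over the arrays). Of the listed symbols, 1 (SPRR1B) was matched through a synonym in the Sscrofa11.1 gene table, which was used for names and gene order only. Deep and shallow arrays were compared on the log2 scale with limma 3.58.1 in R 4.3.3 (mean-variance trend, pig as block, Benjamini-Hochberg) over the 14399 probesets at or above the 40th percentile of mean signal, 27.1. The pairing comes from the series' design text and titles, and deviations from the mean of each depth correlated at -0.01 between arrays of one pig, across probesets. Sample numbers are not stated as such, so pairing rests on reading them in listed order. The fit was also run on simulated arrays drawn without a pig effect or floored signals, so that run is no check of the calls made here.

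Named were all 10 genes, the 20 others with the largest excess, list genes past 4-fold and up to 4 more of each list by mean signal, plus VIM, CDH2, ZEB1, COL1A2, DCN and THY1; other genes were named after their values were seen. Members and lists were chosen with earlier results of these data known. No sequences are shown.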

Additional observations from a re-analysis of the deposited data

Results flagged for a closer look

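A signal appeared in probesets that the counts over named genes leave out. Of 13930 probesets with no symbol or several, 56 (0.402%) were at least 4-fold higher on the shallow array of pig 1 than on the highest of the other arrays, each raised to its absent control. Among named genes, each by its brightest probeset, the share was 0.828%. The same rule gave 1 such probeset on the deep array of pig 1, 11 on the deep array of pig 2 and 1 on the shallow array of pig 2. The largest of the 56 was 135-fold. No gene is named from them here. No group held the 4 samples needed to look for single outlying values.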

How the results depend on the processing

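The count of the 10 genes at least 4-fold high on the shallow array of pig 1, main value 8, stayed within 1.5 times of that value under every alternative run for it. The count of list genes above the other cultures, main value 5, was 10 with a 2-fold rule, 2 with an 8-fold rule and 3 with the mean over all probesets of a gene. With a 2-fold rule 283 named genes met it, with an 8-fold rule 24, against 56. Without the shallow array of pig 2 the count was 113. The deep versus shallow count of 49 called probesets was 0 with no replicate block (1885 at an unadjusted p under 0.05), 202 with the crossed pairing, 0 with no filter on dim probesets (2246 at an unadjusted p under 0.05) and 6 with values under 16 set to 16. Leaving out the reporter-gene probesets, chosen after seeing the data, gave 49. Without deep replicate 1 or 2 it was 0 (1746 and 682 at an unadjusted p under 0.05), without shallow replicate 1 it was 176 and without shallow replicate 2 it was 1768, so it ranged from 0 to 1768. These fits had no block and assume that the lone array varies like the other depth; why the counts move was not tested. Without shallow replicate 1 the deep minus shallow differences turned positive for CDH1 (0.07), EPCAM (1.79), PERP (3.91), CLDN4 (0.13), KRT8 (0.05), KRT18 (1.78) and S100A14 (0.03); those of CDH1, EPCAM, PERP and KRT18 rest on shallow signals below the controls. For the same genes they were -6.59, -5.89, -6.55, -2.69, -2.27, -4.97 and -3.55 without shallow replicate 2. Leaving out any other array, quantile normalization and raising values to the controls turned no sign among the 10 genes, nor did dropping the block for the 7 that passed the filter.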

Other observations

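Few genes were low on the shallow array of pig 1 alone. Of all named genes 5 read there at most 0.25 of the lowest of the other 3 arrays. They were chosen for naming after seeing their values. GPX3, a secreted glutathione peroxidase, read 23.2 on the shallow array of pig 1, against 255 and 331 on the deep arrays of pig 1 and pig 2 and 205 on the shallow array of pig 2. CDO1, which oxidizes cysteine, read 268 there and 1910 to 2423 elsewhere. The others were C1QTNF3, RHOBTB1 and the glycerol kinase gene GK, at 0.135, 0.188 and 0.230 of the lowest other array. The same rule gave 0 genes on the deep array of pig 1, 2 on the deep array of pig 2 and 3 on the shallow array of pig 2.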
